A study of Mus musculus with 12 samples.

Results

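Collagen and laminin genes, which encode the chains of the extracellular matrix, were examined in mouse embryonic stem (ES) cells of the line V6.5 depleted of Tet1 or Tet2. The members were the rows of both gene tables whose Ensembl identifier maps to a symbol for a collagen chain (Col, a number, a, a number) or a laminin chain (Lama, Lamb or Lamc with a number). The rule found 54 genes among 36521 rows, of which 31278 had a symbol: 43 collagen chains and 11 laminin chains. For the description 11 fibrillar collagen chains, 17 basement membrane chains (collagen IV and the laminins) and 26 other collagen chains were kept apart.

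Tet1kd cells were V6.5 cells with a stably integrated pSUPER-puro plasmid that expresses a short hairpin RNA against Tet1, Tet2kd cells carried the same kind of plasmid against Tet2, and parental V6.5 cells carried none. All 3 groups grew in medium with serum and leukemia inhibitory factor, and each gave 4 libraries of poly(A)-selected RNA. The knockdown cells had been electroporated, selected with puromycin on inactivated SNL feeder cells and picked as single clones. The sources used here do not give how many clones stand behind the 4 libraries of a knockdown. No group carried a control hairpin, so the knockdown cannot be told apart from the vector, the selection and the choice of clone. The proteins encoded by Tet1 and Tet2 oxidize methylated cytosine in DNA.

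Collagens are trimers of alpha chains wound into a triple helix. Fibrillar collagens (types I, II, III, V, XI, XXIV and XXVII) assemble into fibres and are mainly products of fibroblasts, bone and cartilage. A basement membrane is a sheet built from a network of laminin, a cross-shaped trimer of an alpha, a beta and a gamma chain, joined to a network of collagen IV. In the early mouse embryo the laminin trimer of the chains encoded by Lama1, Lamb1 and Lamc1 and the collagen IV trimer of Col4a1 and Col4a2 form the first basement membranes, and laminin that holds the Lama5 product supports the self-renewal of cultured pluripotent cells.

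In Tet1kd cells most of the fibrillar chains that changed were lower than in parental cells, and most of the basement membrane chains that changed were higher. Col4a1, Col4a2, Lama1, Lama3, Lamb1 and Lamb2 were higher, whereas Col1a1, Col1a2, Col2a1, Col3a1, Col5a2, Col11a2 and Col24a1 were lower and Col5a1 and Col27a1 higher. In Tet2kd cells fewer members changed, and Col1a1, Col1a2 and Col2a1 were higher than in parental cells, while Col3a1, Col11a2 and Col4a2 were lower. A gene was called where the adjusted p of the first DESeq test in the authors' deposited table was at most 0.05. By that test, 12 of 54 members were higher in Tet1kd cells and 15 were lower, where 30.4% of all 23120 genes tested were called (15.2% higher, 15.3% lower). In Tet2kd cells 6 of 54 members were higher and 4 were lower, where 7.14% of all 22949 genes tested were called (3.85% higher, 3.29% lower). Both comparisons use the same parental libraries, so their values are set side by side and no overlap between them is given.

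**Figure D1:**
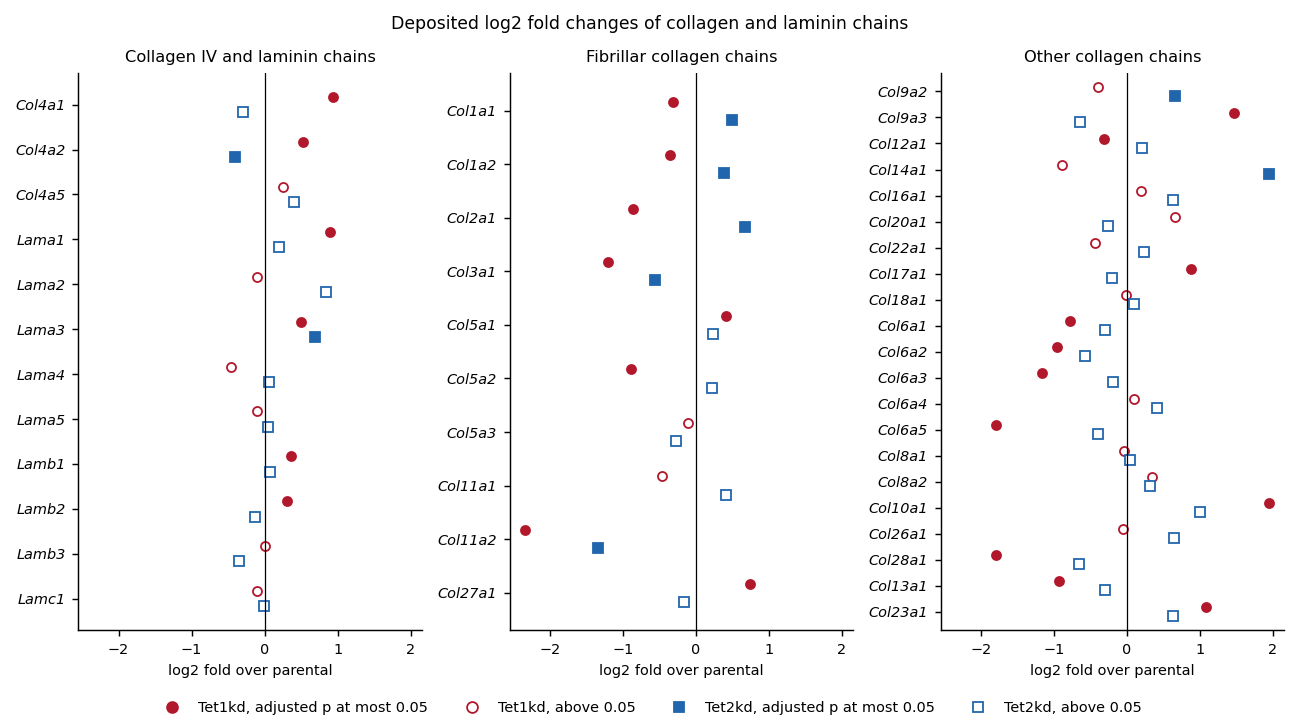
Deposited log2 fold changes over parental for Tet1kd (red circles) and Tet2kd (blue squares), 1 row for each chain, with filled symbols at an adjusted p of at most 0.05. The members drawn have a parental mean of at least 10 or a call, and Col24a1 is left out. Col4a1 lies at 0.93 in Tet1kd and -0.30 in Tet2kd, and Col1a1 at -0.31 in Tet1kd and 0.49 in Tet2kd.

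Among the fibrillar chains 2 of 11 were higher and 7 lower in Tet1kd cells, against 3 higher and 2 lower in Tet2kd cells. Of the 17 basement membrane chains 6 were higher and 1 lower in Tet1kd cells, and in Tet2kd cells 1 was higher and 2 were lower. Over all genes tested 15.2% were higher and 15.3% lower in Tet1kd, and 3.85% and 3.29% in Tet2kd. The median log2 fold change of the 10 fibrillar chains with a parental mean of at least 10 was -0.41 in Tet1kd and 0.23 in Tet2kd, and that of the 13 such basement membrane chains was 0.26 and 0.05 in the same order. Over all genes of that level the median was -0.02 in Tet1kd and -0.0033 in Tet2kd. All 4 Tet1kd libraries lay above all parental libraries in 2 of 10 fibrillar and 5 of 12 basement membrane chains assessed, where 24.3% of all genes did, and below them in 6 of 10 fibrillar and 2 of 12 basement membrane chains, where 24.4% did. Among the 5 is Lama1, whose separation was fixed by the group means, as given below. All 4 Tet2kd libraries lay above in 3 fibrillar chains and 1 basement membrane chain, where 11.5% of all genes did, and below in 2 and 3 of them, where 11.7% did. The RNA came from whole cultures, in which fewer cells of a type and less RNA per cell cannot be told apart.

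The gene tables hold group means only, and the reads of each library were recovered from the digits of those means. Libraries carry the letters a to d by depth within a group, and the letters are not tied to the replicate numbers of the labels. The depth in mega-reads (M) was estimated at 15.8 to 39.7 M in Tet1kd and 14.4 to 31.1 M in Tet2kd libraries, and was 14.6 to 31.6 M in parental libraries. In each group a and b were the deeper and c and d the shallower libraries, and deviations from the group mean correlated across 4742 genes at 0.638 to 0.811 between libraries of different groups in the same depth class and at -0.782 to -0.621 across classes. Within a group the libraries also paired off, 1 deeper with 1 shallower: the difference a minus b correlated with c minus d at 0.69 in Tet1kd, -0.56 in Tet2kd and -0.41 in parental libraries. Nothing in the labels says that such pairs share a culture or clone; if they do, p-values over 4 libraries are too small. All 27 members called in Tet1kd and all 10 called in Tet2kd had the same direction in the deeper libraries alone and in the shallower libraries alone. The targeted genes went with the labels, since Tet1 was at 25.2% of its parental level in Tet1kd and Tet2 at 50.9% in Tet2kd in the authors' deposited table.

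The chains spanned a wide range of levels, which were compared per kb of exon as normalized counts (reads divided by a size factor) on 1 common scale. Lamc1, the gamma chain of most laminins, was the most abundant, with 1784 normalized counts per kb in Tet1kd, 1898 in Tet2kd and 1918 in parental cells. Col18a1, whose product sits at the edge of basement membranes and carries the endostatin domain, came next with 954, 1029 and 961 in the same order. Lama5 had 724 in Tet1kd, 801 in Tet2kd and 776 in parental cells, and Lamb1, the beta chain that partners Lama1 and Lama5, had 710.4, 579 and 551 in that order. These leading chains are basement membrane chains, apart from Col18a1 of the basement membrane zone.

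The most abundant fibrillar chain was Col1a1, at 201 normalized counts per kb in Tet1kd, 349 in Tet2kd and 249 in parental cells. Col5a1 followed with 127, 112 and 95.1, and Col1a2 with 60.2, 101 and 77.2, in the same order of groups. The length used was that of all annotated exons of a gene merged, 12.4 kb for Col1a2 and 8.49 kb for Col5a1. By normalized count Col1a2 was above Col5a1 in Tet2kd (1255 against 949) and parental cells (960 against 807). In Tet1kd it was below (748 against 1076). Per kb, Col1a1 was well below Lamc1, Lama5 and Lamb1 in all 3 groups. At the other end Col4a3 and Col4a4, collagen IV chains of specialised adult basement membranes, had 9 and 2 reads summed over the Tet1kd libraries, none in the Tet2kd libraries and 3 each in the parental libraries. Col19a1 had 3 reads in Tet1kd, 4 in Tet2kd and 0 in parental libraries, and Col9a1 had 0, 4 and 10 in the same order, so no fold is given for these 4 genes.

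**Figure D2:**
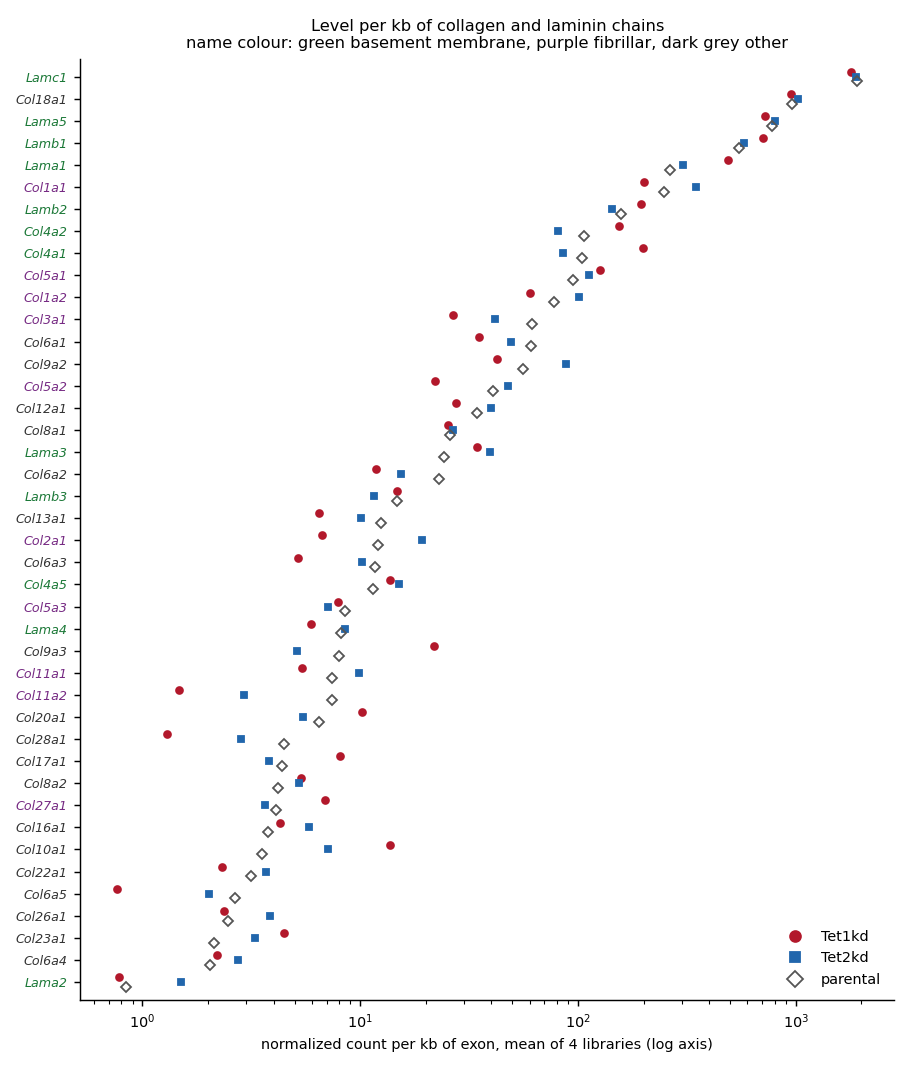
Mean normalized count per kb of exon (log axis) of chains with a parental mean of at least 10, ordered by the parental level, for Tet1kd (red circles), Tet2kd (blue squares) and parental cells (open diamonds). Names in green are basement membrane chains, among them Lamc1 at the top of the list at 1918 in parental cells, and names in purple are fibrillar chains, led by Col1a1 at 249.

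Col4a1 and Col4a2 encode the 2 chains of the common collagen IV trimer and lie head to head on chromosome 8. In the RefSeq annotation of GRCm38.p6 the start of Col4a1 on the minus strand is base 11312826 and that of Col4a2 on the plus strand is base 11312805, so that 22 bases belong to both transcripts, and the stretch is shown because both genes were higher in Tet1kd cells. The plus strand of chr8:11312801-11312830 (30 bases) reads, with the shared bases in capitals:
Col4a1 and Col4a2 starts: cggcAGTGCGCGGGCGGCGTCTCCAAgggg

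Col4a1 (ENSMUSG00000031502, GRCm38 chr8:11198423-11312826, minus strand) had 1412, 1397, 1545 and 1610.1 normalized counts in Tet1kd libraries a to d, against 712, 749.5, 833 and 831 in parental libraries a to d. Every Tet1kd library was above every parental library. In the authors' deposited table its log2 fold change was 0.93 (adjusted p = 1.27e-20), which puts the Tet1kd mean at 191% of the parental one. Tet2kd libraries held 639, 581, 581 and 742, which overlapped the parental range, with a log2 fold change of -0.30 that did not pass (adjusted p = 0.0764 in the authors' deposited table).

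Col4a2 (ENSMUSG00000031503, GRCm38 chr8:11312805-11449287, plus strand) had 970.5, 964, 1071 and 1080.3 normalized counts in the Tet1kd libraries, against 739, 712, 669 and 709 in the parental libraries. Here too the Tet1kd libraries all lay above the parental ones, with a log2 fold change of 0.53 (adjusted p = 7.7e-06 in the authors' deposited table). In Tet2kd libraries Col4a2 had 507, 494, 525 and 609.5 normalized counts, all below the parental libraries, and the log2 fold change was -0.41 (adjusted p = 0.00111 in the authors' deposited table). The lower level of Col4a1 in Tet2kd did pass the second test of the authors' deposited table (adjusted p = 0.00828) and limma (adjusted p = 0.0226), a limma call lost without Tet2kd library b or c or parental library c or d (adjusted p = 0.063 to 0.0693). Tested directly with limma on the recovered reads, Col4a1 was higher in Tet1kd than in Tet2kd libraries by 1.23 on the log2 scale (SE 0.086, adjusted p = 1.41e-08) and Col4a2 by 0.94 (SE 0.075, adjusted p = 6.97e-08). The median log2 fold change of the 40 nearest expressed genes was -0.01 in Tet1kd and -0.13 in Tet2kd around both genes. No other collagen IV chain was called: the minor chains Col4a3, Col4a4, Col4a5 and Col4a6 did not pass in either knockdown.

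Lama1 (ENSMUSG00000032796, GRCm38 chr17:67697259-67822647, plus strand), the alpha chain of the embryonic laminin trimer, had 4411, 4546, 4933 and 5106 normalized counts in the Tet1kd libraries, against 2303, 2326, 2704 and 2876 in the parental libraries. The groups did not overlap. Its log2 fold change was 0.90 (adjusted p = 4.75e-22 in the authors' deposited table), the smallest adjusted p of any member in either comparison. Tet2kd libraries held 2881, 2623, 3182 and 3009 and overlapped the parental ones, with a log2 fold change of 0.20 that did not pass (adjusted p = 0.22 in the authors' deposited table). The second test of the authors' deposited table did call Lama1 higher in Tet2kd (adjusted p = 0.000204), as did limma with depth class as a term. The difference between the knockdowns was 0.70 on the log2 scale (SE 0.079, limma adjusted p = 2.58e-06).

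Lama5 (ENSMUSG00000015647, chromosome 2), the alpha chain of the other major laminin of pluripotent cells, was called in neither knockdown by the first deposited test. It had 6990.4, 7555, 9192 and 9237 normalized counts in Tet1kd, 8662, 7691, 9609.8 and 10537 in Tet2kd and 7764, 7796, 9745 and 10048 in parental libraries. The log2 fold changes were -0.10 in Tet1kd (adjusted p = 0.776) and 0.05 in Tet2kd (adjusted p = 0.996) in the authors' deposited table. In each group the shallower libraries c and d were above the deeper libraries a and b, a split larger than the difference between the group means. Within each depth class both Tet1kd libraries were below both parental libraries, and Lama5 was called lower in Tet1kd with depth class as a term in limma, on the means of paired libraries and by the second test of the authors' deposited table (adjusted p = 0.013). Lama3 (ENSMUSG00000024421, chromosome 18), an alpha chain of epithelial laminin, was the only member of the laminin family called higher in both knockdowns. It had 345, 355, 421 and 356 normalized counts in Tet1kd libraries, 407, 452, 382 and 451 in Tet2kd libraries and 262, 251, 269 and 264 in parental libraries. No knockdown library reached down into the parental range, and the log2 fold changes were 0.50 in Tet1kd (adjusted p = 0.000995) and 0.69 in Tet2kd (adjusted p = 2.41e-06) in the authors' deposited table. Lama2 and Lama4, alpha chains of muscle and vessel basement membranes, were not called by the first deposited test, with deposited log2 fold changes of -0.10 and -0.47 in Tet1kd and 0.84 and 0.06 in Tet2kd in the authors' deposited table; the second test there called Lama4 lower in Tet1kd (adjusted p = 0.0484).

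Among the beta chains Lamb1 (ENSMUSG00000002900, GRCm38 chr12:31265234-31329644, plus strand) had 6262, 6651, 7519.9 and 7749.6 normalized counts in the Tet1kd libraries, against 5198, 5166, 5754 and 5729.6 in the parental libraries. The lowest Tet1kd library was above the highest parental library, although each group was itself split by depth. For Lamb1 the log2 fold change was 0.37 (adjusted p = 0.00125 in the authors' deposited table), and with 5460.0, 5145, 6391 and 5983 normalized counts the Tet2kd libraries gave 0.07 (adjusted p = 0.868 in the authors' deposited table). Lamb2 (ENSMUSG00000052911, chromosome 9), a beta chain of synapses and kidney, had 1044, 1101, 1239 and 1353 normalized counts in Tet1kd, 865, 725, 929.5 and 979 in Tet2kd and 866, 899, 1078 and 979 in parental libraries. Its Tet1kd and parental libraries overlapped, and the call in Tet1kd (log2 fold change 0.31, adjusted p = 0.0421 in the authors' deposited table) was close to the threshold; with limma it was lost without Tet1kd library c or d or parental library a or b (adjusted p = 0.0513 to 0.0695). In Tet2kd the log2 fold change of Lamb2 was -0.13 (adjusted p = 0.732 in the authors' deposited table), and the difference between the knockdowns was 0.44 (limma adjusted p = 0.00228). Lamb3, the beta chain that pairs with Lama3 in epithelial laminin, was not called, at 0.0036 in Tet1kd and -0.35 in Tet2kd in the authors' deposited table.

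Lamc1 (ENSMUSG00000026478, chromosome 1) was recovered library by library in parental cells only, where it had 14920.1, 15311, 16304 and 16926 normalized counts. The group mean was 14759.7 in Tet1kd and 15703 in Tet2kd, against 15865 in parental cells, and the log2 fold changes were -0.10 (adjusted p = 0.439) and -0.01 (adjusted p = 1) in the authors' deposited table. By the second test of the authors' deposited table Lamc1 was called lower in Tet1kd (adjusted p = 0.00498).

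**Figure D3:**
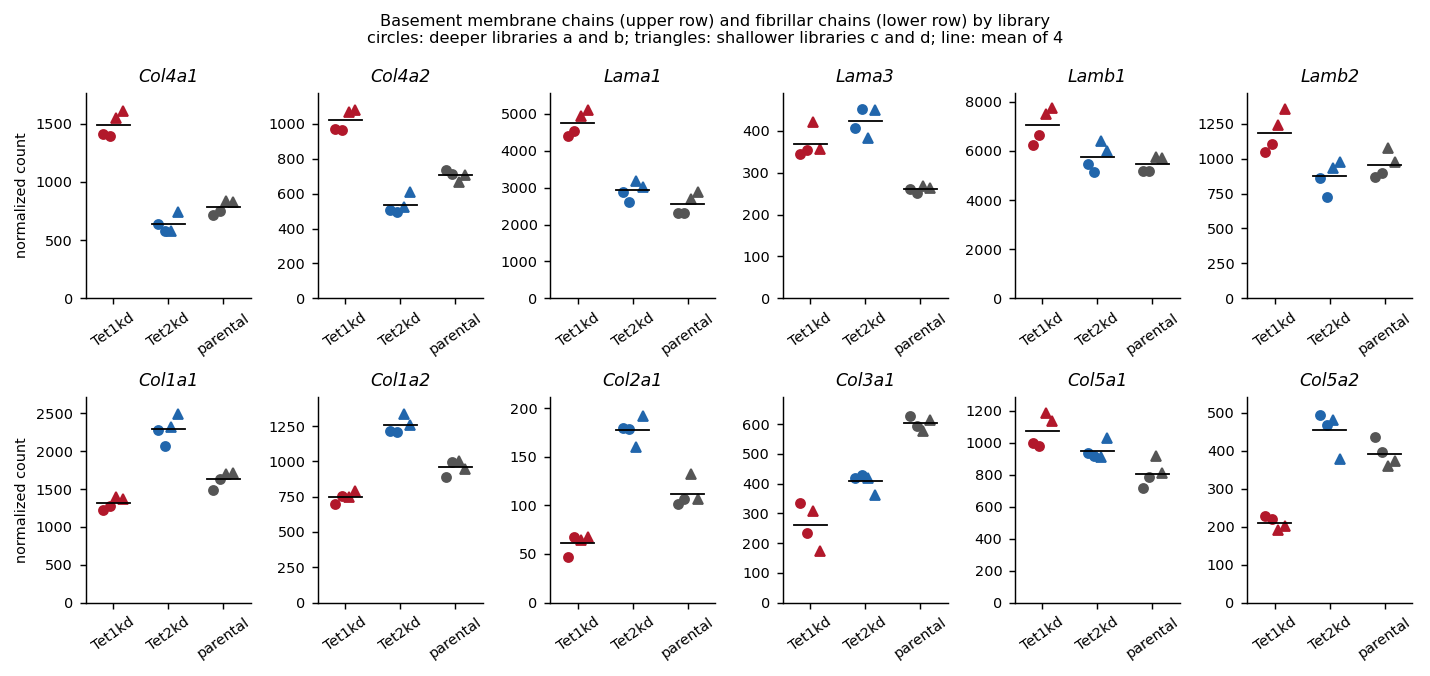
Normalized counts of 6 basement membrane chains (upper row) and 6 fibrillar chains (lower row) in each library of Tet1kd (red), Tet2kd (blue) and parental cells (grey), with circles for the deeper and triangles for the shallower libraries and a line at the mean of 4. Col4a1 reads 1397 to 1610.1 in Tet1kd and 712 to 833 in parental libraries, and among the chains drawn Col3a1 has the widest range of Tet1kd libraries relative to their mean, 174 to 336.

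The type I chains, the main fibre-forming collagen of connective tissue, were lower in Tet1kd cells and higher in Tet2kd cells. Col1a1 (ENSMUSG00000001506, GRCm38 chr11:94936224-94953042, plus strand) had 1226, 1282, 1391 and 1367 normalized counts in Tet1kd libraries and 2286, 2075, 2314 and 2494 in Tet2kd libraries, against 1491, 1631, 1701 and 1706 in parental libraries. The 3 groups did not overlap at any library. For Col1a1 the log2 fold change was -0.31 in Tet1kd (adjusted p = 0.00369) and 0.49 in Tet2kd (adjusted p = 1.55e-06) in the authors' deposited table. Col1a2 (ENSMUSG00000029661, chromosome 6) had 697, 757, 746 and 791 normalized counts in Tet1kd, 1215, 1210.2, 1339 and 1256 in Tet2kd and 889.8, 997, 1004 and 948 in parental libraries. It showed the same order of groups, again with no library in the range of another group. Its log2 fold changes were -0.36 (adjusted p = 0.00128) in Tet1kd and 0.39 (adjusted p = 0.00178) in Tet2kd in the authors' deposited table. Col1a2 lies on chromosome 6, where the median log2 fold change of expressed genes in Tet1kd was -0.20; its 40 nearest expressed genes had a median of -0.04. Between the knockdowns Col1a1 differed by -0.80 (SE 0.067, limma adjusted p = 1.09e-07) and Col1a2 by -0.75 (SE 0.063, limma adjusted p = 1.22e-07) on the log2 scale, lower in Tet1kd.

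Col2a1 (ENSMUSG00000022483, chromosome 15), the collagen of cartilage, had 46.3, 67.4, 64.6 and 67.6 normalized counts in Tet1kd and 179, 179, 160.1 and 192 in Tet2kd libraries, against 102, 107, 132 and 107 in parental libraries. Its groups were fully apart and in the same order as those of the type I chains. For Col2a1 the log2 fold change was -0.86 in Tet1kd (adjusted p = 0.000148) and 0.67 in Tet2kd (adjusted p = 0.00153) in the authors' deposited table, and the difference between the knockdowns was -1.54 (limma adjusted p = 4.05e-07). Col2a1 was thus the fibrillar chain, among those tested by limma, with the largest difference between the knockdowns.

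Col3a1 (ENSMUSG00000026043, GRCm38 chr1:45311538-45349706, plus strand), which forms the reticular fibres of soft tissue, had 336, 233, 307 and 174 normalized counts in Tet1kd libraries and 420.3, 428, 419.6 and 363 in Tet2kd libraries, against 628, 593, 577 and 613 in parental libraries. Both knockdowns were below the parental range, and in Tet1kd libraries a and c lay clearly above b and d, the same pairs of libraries that go together across other genes. Its log2 fold change was -1.20 in Tet1kd (adjusted p = 2.69e-15) and -0.56 in Tet2kd (adjusted p = 5.6e-05) in the authors' deposited table. With limma the Tet2kd call was at an adjusted p of 0.0175, and without Tet2kd library d it was at 0.0502. Col5a2 (ENSMUSG00000026042, chromosome 1), the neighbour of Col3a1 on chromosome 1 and a chain of the type V collagen that starts fibre assembly, had 228, 221, 190.1 and 203 normalized counts in Tet1kd and 495, 467, 482 and 377 in Tet2kd libraries, against 435, 396, 359.8 and 374 in parental libraries. Only the Tet1kd libraries were apart from the parental ones. For Col5a2 the log2 fold change was -0.89 in Tet1kd (adjusted p = 1.47e-10) and 0.22 in Tet2kd (adjusted p = 0.318) in the authors' deposited table.

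Col5a1 (ENSMUSG00000026837, GRCm38 chr2:27886425-28039514, plus strand), the partner of Col5a2 in the type V trimer, went the other way, with 1000.3, 981, 1187 and 1135 normalized counts in Tet1kd libraries and 938, 919, 909 and 1029 in Tet2kd libraries, against 714, 785, 916 and 814 in parental libraries. All Tet1kd libraries were above the parental ones, whereas a Tet2kd library fell within the parental range. Its log2 fold change was 0.41 in Tet1kd (adjusted p = 0.000515) and 0.23 in Tet2kd (adjusted p = 0.0921) in the authors' deposited table. The second test of the authors' deposited table called Col5a1 higher in Tet2kd too (adjusted p = 0.00653). Col27a1 (ENSMUSG00000045672, chromosome 4), a fibrillar collagen of cartilage, had 88.3, 110.2, 71.0 and 88.3 normalized counts in Tet1kd, 38.3, 67.9, 48.9 and 35.9 in Tet2kd and 65.4, 41.5, 66.6 and 40.1 in parental libraries. It too was above the parental libraries in Tet1kd only. The log2 fold change of Col27a1 was 0.74 in Tet1kd (adjusted p = 0.00432) and -0.16 in Tet2kd (adjusted p = 0.966) in the authors' deposited table.

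The minor fibrillar chains were low throughout. Col11a2 (ENSMUSG00000024330, chromosome 17), a chain of cartilage type XI collagen, had 6.07, 8.72, 6.34 and 19.3 normalized counts in Tet1kd libraries and 24.6, 11.9, 20.8 and 23.4 in Tet2kd libraries, against 45.8, 56.4, 48.2 and 54.0 in parental libraries. Both knockdowns lay wholly below the parental libraries. Its log2 fold change was -2.34 in Tet1kd (adjusted p = 1.85e-10) and -1.34 in Tet2kd (adjusted p = 0.00156) in the authors' deposited table. Col24a1 (ENSMUSG00000028197, chromosome 3), a collagen of developing bone, had 2 reads in all Tet1kd libraries, against 35 in the parental libraries (adjusted p = 0.00119 in the authors' deposited table), a level per depth of 4.99% of parental with an exact 95% interval of 0.582% to 19.4% that covers counting error only. The 23 reads in Tet2kd libraries gave no call (adjusted p = 0.901 in the authors' deposited table). Col5a3 and Col11a1 did not pass the first deposited test in either knockdown; the log2 fold change of Col11a1 was -0.46 in Tet1kd and 0.41 in Tet2kd in the authors' deposited table.

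Most genes of a fibroblast list were lower in Tet1kd cells, as were most fibrillar chains apart from Col5a1 and Col27a1, which were higher. Of a list of 20 feeder fibroblast markers, 13 were lower and 1, the protease gene Mmp2, was higher in Tet1kd. Thy1, Prrx1, Fbn1, Fstl1, Fbln2 and Loxl1 were not called there. Of all genes tested 15.3% were lower and 15.2% higher in Tet1kd. In Tet2kd 3 of the 20 were higher and 3 lower, against 3.85% and 3.29% of all genes tested. The median log2 fold change of the list was -1.01 in Tet1kd and -0.0048 in Tet2kd. The summed normalized counts of the list were 10414 to 10803 in Tet1kd libraries and 12514 to 12878 in Tet2kd libraries, against 12626 to 12938 in parental libraries. In Tet1kd the fibroblast proteoglycan genes Dcn and Lum averaged 7.71 and 0.414 normalized counts and the fibroblast protease gene Fap 0.276, against 243, 18.6 and 12.7 in parental cells. In Tet2kd the same genes averaged 210.3, 22.2 and 6.72, while the contractile genes Acta2 and Tagln averaged 1481 and 1436, against 948 and 949 in parental cells. Twist2 was also called higher in Tet2kd, whereas Pdgfra, Twist1 and Fstl1 were called lower, with Pdgfra at 50.4, against 114 in parental cells. The fall of Dcn in Tet1kd was -4.98 on the log2 scale (adjusted p = 1.4e-89) and that of Acta2 was -1.72 (adjusted p = 1.91e-47), and the log2 fold change of Acta2 in Tet2kd was 0.64 (adjusted p = 4.65e-11), all in the authors' deposited table. The part of fibroblasts in the values of the fibrillar chains was not tested.

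Markers of primitive and parietal endoderm, the embryonic cells that lay down laminin and collagen IV, were mostly not called in either knockdown. Among those called, more were lower than higher. Of the 14 measured, 1 was higher and 5 were lower in Tet1kd, where 15.2% of all genes tested were higher and 15.3% lower. In Tet2kd 1 was higher and 4 were lower, where 3.85% of all genes were higher and 3.29% lower. The median over 11 genes was -0.47 in Tet1kd and -0.35 in Tet2kd. The summed counts of the 14 were 1009 to 1158 in Tet1kd libraries and 1329.8 to 1406 in Tet2kd libraries. In parental libraries they were 1156 to 1254. The endoderm transcription factor gene Gata6 averaged 34.7 normalized counts in Tet1kd and 41.8 in Tet2kd, against 122 in parental cells, and the endocytic receptor gene Cubn averaged 323 in Tet1kd and 26.3 in Tet2kd, against 67.5. Lrp2, the marker called higher in Tet2kd, averaged 410 in Tet1kd and 881 in Tet2kd, against 547 in parental cells. Afp was at 0 in the parental libraries. Of 8 ES cell markers 4 were higher and 0 lower in Tet1kd, and 1 was higher and 0 lower in Tet2kd; Pou5f1 averaged 15262 in Tet1kd, 12871 in Tet2kd and 14167 in parental cells.

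Among the 26 other collagen chains 4 were higher and 7 lower in Tet1kd, and 2 were higher and 0 lower in Tet2kd. Over all genes tested 15.2% were higher and 15.3% lower in Tet1kd, and 3.85% and 3.29% in Tet2kd. Collagen VI, which forms beaded filaments around cells, was lower in Tet1kd in 4 of its 6 chains: Col6a1, Col6a2, Col6a3 and Col6a5 were lower, and Col6a4 and Col6a6 were not called. Col6a1 (ENSMUSG00000001119, chromosome 10) had 121, 169.6, 139 and 188 normalized counts in Tet1kd libraries, 195, 242, 227 and 201 in Tet2kd libraries and 268, 265, 266 and 267 in parental libraries. All knockdown libraries were below the parental ones, which were closely grouped. For Col6a1 the log2 fold change was -0.79 in Tet1kd (adjusted p = 1.25e-07) and -0.30 in Tet2kd (adjusted p = 0.202) in the authors' deposited table. Col6a2 (ENSMUSG00000020241, chromosome 10) averaged 98.5 ± 13.0 in Tet1kd, 128 ± 18.3 in Tet2kd and 191 ± 46.8 in parental libraries (SD, n = 4 each). Col6a3 (ENSMUSG00000048126, chromosome 1) averaged 62.1 ± 17 in Tet1kd, 122 ± 9.85 in Tet2kd and 139.8 ± 14.3 in parental libraries (SD, n = 4 each). In Tet1kd the log2 fold changes of Col6a2, Col6a3 and Col6a5 were -0.95, -1.17 and -1.79 in the authors' deposited table (adjusted p = 0.00159, 2.11e-08 and 0.00094). None of the collagen VI chains was called in Tet2kd by that test, although Col6a2 passed with limma (adjusted p = 0.0274), a call lost without Tet2kd library a, b or c or parental library b or d (adjusted p = 0.0512 to 0.0839).

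The FACIT collagens, which attach to the surface of fibres, moved one by one. Col9a2 and Col9a3, chains of the same cartilage trimer, parted: Col9a3 (ENSMUSG00000027570, chromosome 2) had 83.3, 81.6, 79.8 and 92.4 normalized counts in Tet1kd, 13.7, 21.1, 28.2 and 15.6 in Tet2kd and 26.9, 21.9, 38.2 and 35.5 in parental libraries. Only in Tet1kd were all libraries above the parental ones. The log2 fold change of Col9a3 was 1.46 in Tet1kd (adjusted p = 3.25e-08) and -0.64 in Tet2kd (adjusted p = 0.447) in the authors' deposited table. Col9a2 (ENSMUSG00000028626, chromosome 4) had 158, 105, 147 and 117 normalized counts in Tet1kd, 289, 253, 288 and 265 in Tet2kd and 175, 156, 173 and 191 in parental libraries. Here the Tet2kd libraries were the ones apart, and above. Its log2 fold change was -0.40 in Tet1kd (adjusted p = 0.106) and 0.66 in Tet2kd (adjusted p = 0.000145) in the authors' deposited table. The lower level of Col9a2 in Tet1kd did pass with limma (adjusted p = 0.0129), also without any 1 library, and in the second test of the authors' deposited table (adjusted p = 0.0367). Between the knockdowns Col9a3 differed by 2.13 (limma adjusted p = 3.97e-06) and Col9a2 by -1.07 (limma adjusted p = 5.35e-06) on the log2 scale.

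Col12a1 (ENSMUSG00000032332, chromosome 9), a FACIT collagen of tendon and fascia, averaged 421 ± 15.4 normalized counts in Tet1kd, 604 ± 35.9 in Tet2kd and 522 ± 44.2 in parental libraries (SD, n = 4 each), and was called lower in Tet1kd (log2 fold change -0.31, adjusted p = 0.0194 in the authors' deposited table). Col14a1 (ENSMUSG00000022371, chromosome 15), another chain of that class, rested on 10 reads in Tet1kd, 47 in Tet2kd and 11 in parental libraries, and was called higher in Tet2kd (log2 fold change 1.94, adjusted p = 0.0474 in the authors' deposited table). Col10a1 (ENSMUSG00000039462, chromosome 10), the collagen of hypertrophic cartilage, had 48.6, 47.6, 27.9 and 46.9 normalized counts in Tet1kd, 8.68, 33.9, 29.7 and 17.1 in Tet2kd and 8.72, 21.1, 8.50 and 6.18 in parental libraries. Only its Tet1kd libraries were clear of the parental range, with a log2 fold change of 1.94 (adjusted p = 6.18e-06) in Tet1kd and 1.01 (adjusted p = 0.627) in Tet2kd in the authors' deposited table. The transmembrane collagens Col17a1, of hemidesmosomes, and Col23a1 were called higher in Tet1kd (log2 fold changes 0.88 and 1.08, adjusted p = 0.0197 and 0.0474 in the authors' deposited table), and Col13a1 lower (-0.94, adjusted p = 0.00494 in the authors' deposited table). Col28a1 was called lower in Tet1kd (-1.79, adjusted p = 0.000539 in the authors' deposited table), with a mean of 6.33 normalized counts in Tet1kd and 21.9 in parental cells. The abundant Col18a1 averaged 6699 ± 870.1 in Tet1kd, 7224 ± 1069.6 in Tet2kd and 6750.5 ± 829.7 in parental libraries, and Col8a1, a network collagen of vessels and cornea, 197 ± 21.5, 209 ± 18.9 and 203 ± 21.8 in the same order (SD, n = 4 each). Neither was called in either knockdown. The 21 members not described one by one had means of at most 98.0 normalized counts in Tet1kd, 126 in Tet2kd and 98.9 in parental cells, and none was called by the first deposited test; limma called Col20a1 higher and Lama4 and Col11a1 lower in Tet1kd (adjusted p = 0.0189, 0.0381 and 0.0412), and each of these calls was lost without at least 1 single library: Col20a1 without Tet1kd b or d or parental a, Lama4 without Tet1kd a or c or parental a, b or d, and Col11a1 without Tet1kd a or d or parental a, b or d.

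The knockdowns were also compared directly, with limma on the recovered reads, over the 14663 genes whose mean reached 10. Of the 43 members tested, 10 were higher in Tet1kd than in Tet2kd and 14 were lower, where 50.9% of all genes tested were called (25.6% higher, 25.4% lower). The fibrillar chains gave 1 higher and 7 lower, the basement membrane chains 6 higher and 1 lower and the other collagens 3 higher and 6 lower. Lamb1 was higher in Tet1kd than in Tet2kd by 0.29 (adjusted p = 0.00445) on the log2 scale in that limma test, while Lama3 differed by -0.20, which did not pass (adjusted p = 0.0708). Col5a2 was lower in Tet1kd with a difference of -1.11 (adjusted p = 3e-07), and the difference of Col5a1, 0.18, did not pass (adjusted p = 0.0889).

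Chains of the same trimer or of related trimers were compared as a ratio of levels per kb within each library. The ratio does not depend on the scaling between libraries. Its size rests on the exon lengths used, which cancel in the difference between groups. The 10 ratio comparisons were tested with an exact two-sided permutation test over 4 against 4 libraries, in which the smallest possible p is 0.0286. Lama5 to Lama1 was 1.35, 1.41, 1.58 and 1.54 in the Tet1kd libraries, against 2.87, 2.85, 3.06 and 2.97 in the parental libraries. The ranges were far apart, and the log2 ratio differed by -1.0 (exact p = 0.0286, adjusted over the 10 comparisons 0.0952). Both chains were settled in Tet1kd by the narrower search limit, under which this ratio could not reach the parental range. Its exact p was therefore fixed by the means. In Tet2kd libraries the same ratio was 2.56, 2.49, 2.57 and 2.98, a difference of -0.15 (exact p = 0.114, adjusted 0.286). Col5a1 to Col5a2 was 4.96, 5.01, 7.06 and 6.32 in Tet1kd, against 1.85, 2.24, 2.88 and 2.46 in parental libraries, a log2 difference of 1.31 (exact p = 0.0286, adjusted 0.0952), and it was 2.14, 2.22, 2.13 and 3.08 in Tet2kd (difference 0.02, exact p = 0.914, adjusted 0.914). The RNA ratio of these type V chains thus lay above the parental range in all 4 Tet1kd libraries, but the difference did not pass after adjustment. Col4a1 to Col4a2 was 1.29, 1.29, 1.28 and 1.32 in Tet1kd, against 0.855, 0.934, 1.105 and 1.04 in parental libraries (log2 difference 0.40, exact p = 0.0286, adjusted 0.0952). Col1a1 to Col1a2 averaged 3.33 in Tet1kd and 3.45 in Tet2kd, against 3.22 in parental libraries, and Col6a1 to Col6a2 averaged 2.95 and 3.21, against 2.71, as geometric means in the same order; neither ratio passed (exact p = 0.143 to 0.629, adjusted 0.286 to 0.698). No ratio passed after adjustment, and none could have unless at least 6 of the 10 comparisons had reached the smallest p. Ratios to Lamc1 were not tested, since its knockdown libraries were not recovered.

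**Figure D4:**
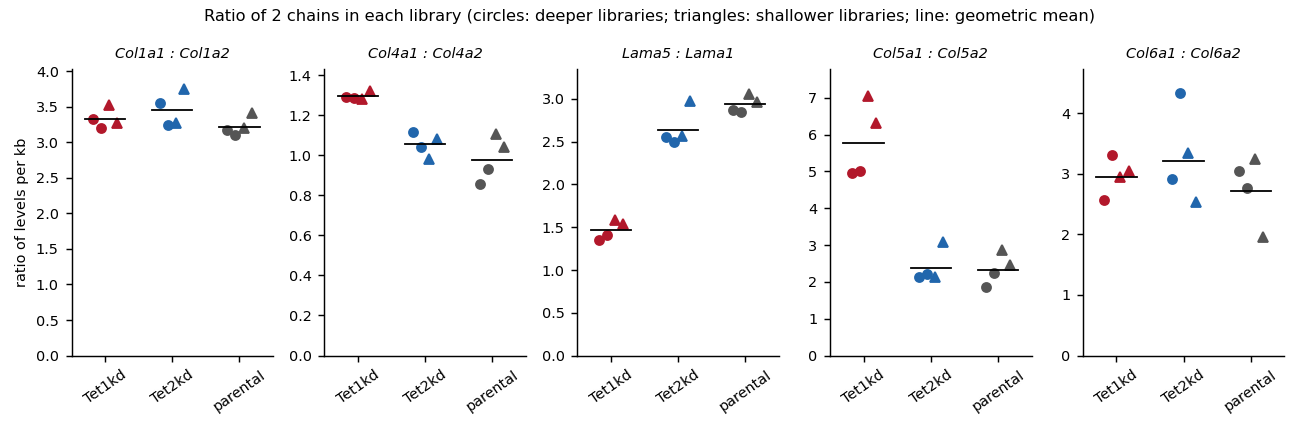
Ratio of the levels per kb of 2 chains in each library of Tet1kd (red), Tet2kd (blue) and parental cells (grey), with a line at the geometric mean. Lama5 to Lama1 lies at 1.35 to 1.58 in Tet1kd and 2.85 to 3.06 in parental libraries, and Col5a1 to Col5a2 at 4.96 to 7.06 in Tet1kd and 1.85 to 2.88 in parental libraries.

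Genes that process, bind or degrade collagens and laminins were taken from lists that held no member; Loxl1, Mmp2 and Mmp3 stand on the fibroblast list too. Of 25 genes for collagen synthesis and crosslinking, 4 were higher and 6 lower in Tet1kd and 1 was higher and 2 lower in Tet2kd. Over all genes tested 15.2% were higher and 15.3% lower in Tet1kd, and 3.85% and 3.29% in Tet2kd. Lox, the lysyl oxidase that crosslinks fibrillar collagen, averaged 559.9 normalized counts in Tet1kd and 1543 in Tet2kd, against 1026 in parental cells, with log2 fold changes of -0.87 (adjusted p = 1.83e-16) and 0.59 (adjusted p = 8.13e-08) in the authors' deposited table, the same pair of directions as the type I chains. Adamts14, a protease that trims procollagen, averaged 848 in Tet1kd, 387 in Tet2kd and 381 in parental cells, and Plod1, a lysyl hydroxylase, 1748, 1211 and 1154 in the same order; both were called higher in Tet1kd (log2 fold change 1.15 and 0.60 in the authors' deposited table). Plod2, another lysyl hydroxylase, was called lower in Tet2kd (-0.45, adjusted p = 5.79e-05 in the authors' deposited table).

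Of 14 basement membrane partners, 4 were higher and 4 lower in Tet1kd, and 1 was higher and 1 lower in Tet2kd. For this and the next 2 lists, the shares over all genes tested were 15.2% higher and 15.3% lower in Tet1kd. In Tet2kd they were 3.85% and 3.29%. Nid1, the nidogen that links laminin to collagen IV, averaged 11832 normalized counts in Tet1kd and 7179 in Tet2kd, against 7902 in parental cells (log2 fold change 0.58 in Tet1kd, adjusted p = 1.38e-11 in the authors' deposited table). Npnt, an integrin ligand of basement membranes, averaged 371 in Tet1kd and 148 in Tet2kd, against 225, and was called in opposite directions in the 2 knockdowns, as Col4a2 was. The matricellular genes Smoc1 and Sparc were lower in Tet1kd, at 319.7 and 5198, against 809.7 and 7851 in parental cells. The related Smoc2 was higher in Tet1kd, at 39.3, against 11.8 in parental cells. Among 14 matrix receptors 4 were higher and 8 lower in Tet1kd and 0 were higher and 2 lower in Tet2kd. Receptors of laminin went both ways: the integrin genes Itga6 and Itgb4 were higher in Tet1kd (8805 and 589.98, against 6025 and 362 in parental cells), while Itga3, Itga7 and Itgb1 were lower (1221, 35.1 and 5888, against 1598, 66.1 and 7039), as were Dag1 and Bcam (4873 and 2195, against 6107 and 4224). The collagen-binding integrin genes Itga1 and Itga11 were lower (49.7 and 54.4, against 155 and 116). Among 13 matrix proteases and inhibitors 2 were higher and 8 lower in Tet1kd, and 3 were higher and 0 lower in Tet2kd. The stromelysin gene Mmp3 averaged 15.9 in Tet1kd and 131 in Tet2kd, against 169 in parental cells. Timp3, a metalloproteinase inhibitor, was called lower in Tet1kd and higher in Tet2kd (386 and 1358, against 944 in parental cells).

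Sequence upstream of the start was available from the RefSeq table of GRCm38.p6 for 39 of the 54 members. The 150 bases before the annotated start were searched for the CCAAT box, the GC box with the letters GGGCGG and the TATA box with the letters TATAAA, in each case on both strands, and CpG dinucleotides were counted. CCAAT was found in 7 of 39 members, against 24.5% of all 32851 promoters, GGGCGG in 20 of 39, against 28.6%, and TATAAA in 4 of 39, against 7.57%. The median number of CpG was 7 in the members and 4 over all promoters. Upstream sequences of 3 members are shown because they stand for the 3 patterns above: Lamb1, a basement membrane chain higher in Tet1kd, Col5a1, a fibrillar chain higher in Tet1kd, and Col3a1, a fibrillar chain lower in both knockdowns. The plus strand is given, which is the strand of each gene, with matches to the motifs in capitals, for chr12:31265143-31265233, chr2:27886275-27886424 and chr1:45311388-45311537, each ending before every annotated start of its gene.
Lamb1: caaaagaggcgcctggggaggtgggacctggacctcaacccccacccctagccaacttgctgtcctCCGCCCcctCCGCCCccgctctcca
Col5a1: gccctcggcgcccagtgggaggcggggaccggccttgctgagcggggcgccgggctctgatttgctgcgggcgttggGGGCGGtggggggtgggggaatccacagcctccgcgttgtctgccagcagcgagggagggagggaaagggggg
Col3a1: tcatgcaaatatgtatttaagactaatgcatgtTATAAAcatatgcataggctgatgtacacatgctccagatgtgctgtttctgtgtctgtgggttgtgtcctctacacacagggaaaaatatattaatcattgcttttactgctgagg

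The Lamb1 stretch of 91 bases held 2 matches to the GC box and 4 CpG, the Col5a1 stretch of 150 bases held 1 match to the GC box and 13 CpG, and the Col3a1 stretch of 150 bases held 1 TATAAA and 0 CpG. No match overlapped another, and a match describes the letters of the window, not binding.

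Use of single exon bins was compared in the authors' deposited exon tables. Of 848 tested bins of members 8 were called in Tet1kd (0.943%), where 2.56% of all bins tested were called, and of 835 bins 12 were called in Tet2kd (1.44%), where 2.45% were called. Lamc1, which has 37 bins in the tables, held 4 of those called in Tet1kd and 6 of those called in Tet2kd. Its last 2 bins at the 3′ end, with a mean of 3043 and 4103 normalized counts in the Tet1kd table, were used more in Tet1kd (adjusted p = 9.66e-05 and 0.0191 in the authors' deposited table) and in Tet2kd (adjusted p = 5.95e-10 and 0.00865 in the authors' deposited table). The log2 changes of use of these last 2 bins were 0.08 and 0.05 in Tet1kd and 0.12 and 0.06 in Tet2kd. The bins 13 and 14 from the 3′ end were used less in both knockdowns. Their log2 changes were -0.18 and -0.23 in Tet1kd and -0.22 and -0.18 in Tet2kd. Both comparisons share the parental libraries. In Col3a1 the last bin was used more and the fourth bin from the 3′ end less in Tet2kd (adjusted p = 0.0171 and 2.42e-09 in the authors' deposited table), and the last bin of Col1a2 was used more in Tet2kd (adjusted p = 0.0306 in the authors' deposited table). The other called bins lay in Col18a1, Lama1 and Lamb1 in Tet1kd and in Col12a1, Col18a1 and Lamb1 in Tet2kd.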

How the data were processed

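Poly(A)-selected RNA of 12 libraries was sequenced, 4 each of Tet1kd, Tet2kd and parental V6.5 cells. Reads were aligned with TopHat2 2.0.0 and handled with SAMtools 0.1.18, and DESeq was used for genes, on the builds mm9 and NCBIM37, per the submitters' processing notes. The authors deposited 1 gene table per knockdown with normalized counts as group means (a signal, not raw counts), a fold ratio, a log2 fold change and p-values of 2 tests, per the file headers. Their deposited exon tables hold means, a log2 change of use and adjusted p-values per bin, and the remaining score columns the authors deposited were not used for results.

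Whole reads per library were recovered from the digits of the group means, searching within 60% of the mean, or 20% where several answers fitted, with 1 answer required. In this way 21276 of 21658 Tet1kd genes, 21084 of 21368 Tet2kd genes and 21991 of 22004 parental genes with reads were recovered, and 53 members in each knockdown. Solved from 1 table alone, 20636 parental genes had 1 answer. The search forces that answer to equal the one from both tables, so the match is no test. Where only the narrower limit gave 1 answer from 1 table, 1004 parental genes had the answer of both tables and 0 another. The narrower limit settled 4 members in Tet1kd (Col18a1, Lama1, Lama5 and Lamb1) and 2 in Tet2kd (Col18a1 and Lama5). Values of the Tet2kd table were multiplied by 1.09 to reach the scale of the other. SDs are over 4 libraries.

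The test was the first p-value of the authors' deposited DESeq tables, adjusted over all genes, at 0.05. The second deposited test and limma 3.58.1 (R 4.3.3) on log2(normalized count + 0.5), for genes with a mean of at least 10, were alternatives, and limma compared the knockdowns. Limma was also run on simulated counts for 14562 genes. It found 94 (Tet1kd against parental) and 90 (Tet2kd against parental) of 100 genes changed 2-fold. It found 76 and 72 of 100 changed 1.5-fold, and 9 and 8 of 14362 unchanged genes. The simulated libraries were independent, with 1 fixed spread for all genes and no depth classes or pairs. These rates therefore need not hold for the real libraries, where they were not tested. Nothing ties the libraries to separate cultures, so p-values measure the spread between these libraries, which may be technical.

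The genes described one by one had a parental mean of at least 100 or a call; 1 such gene, which counts in the totals, is not reported here. Members, classes and lists were chosen with earlier results of these data known. Gene coordinates are those of GRCm38, not of the build the authors aligned to. Genes that overlap, as Col4a1 and Col4a2 do at their starts, may share reads.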

Additional observations from a re-analysis of the deposited data

Results flagged for a closer look

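Of all 43 members tested by limma on the recovered reads, 10 were higher and 14 lower in Tet1kd than in Tet2kd. Over all genes tested 50.9% differed. Of the members that differed, the 20 described one by one are listed here. Values are log2 differences, Tet1kd minus Tet2kd, and the limma adjusted p of these 20 was at most 0.0380. Among basement membrane chains the difference was 1.23 for Col4a1, 0.94 for Col4a2, 0.70 for Lama1, 0.44 for Lamb2 and 0.29 for Lamb1. Among fibrillar chains it was -1.54 for Col2a1, -1.11 for Col5a2, -1.07 for Col11a2, -0.80 for Col1a1, -0.75 for Col1a2, -0.68 for Col3a1 and 0.93 for Col27a1. Among the other collagens it was 2.13 for Col9a3, 1.06 for Col17a1, -0.50 for Col6a1, -0.52 for Col12a1, -0.72 for Col13a1, -1.0 for Col6a3, -1.07 for Col9a2 and -2.05 for Col6a5.

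A library stood apart from the other 3 of its group in 9 of 97 groups tested by Dixon's criterion, which chance meets in about 1 in 20. The high libraries were Tet1kd c for Lama3 at 421 normalized counts, and parental libraries for Col2a1 at 132, Col14a1 at 7.72 and Col10a1 at 21.1. The low libraries were Tet1kd a for Col2a1 at 46.3, Tet1kd c for Col10a1 at 27.9, Tet2kd d for Col3a1 at 363, a Tet2kd library for Col8a1 at 181 and a parental library for Col6a5 at 18.5.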

How the results depend on the processing

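Subtracting the median of all genes, of the chromosome or of the 40 nearest genes turned no called fold; the p-values are not recomputed there, so the calls were not tested by it. The second deposited test called 12 members higher and 19 lower in Tet1kd and 8 higher and 5 lower in Tet2kd. A change of at least 2-fold left 3 members higher and 6 lower in Tet1kd and 1 higher and 1 lower in Tet2kd. With the depth class of the library as a term, limma called 10 members higher and 7 lower in Tet2kd, with Lama1, Col5a1, Col5a2, Col12a1 and Col18a1 added above and Col4a1, Col6a2 and Col9a3 below parental, and the differences of Lama3, Lama5, Col5a1, Col6a2, Col10a1 and Col18a1 between the knockdowns passed. At an adjusted p of 0.01, 4 exon bins remained in Tet1kd and 6 in Tet2kd; the lower counts follow from the stricter limit, and the cause of the others was not tested. Without each library in turn, limma gave 10 to 13 members higher and 15 to 17 lower in Tet1kd, 5 to 7 higher and 4 to 6 lower in Tet2kd, and 10 to 11 higher and 10 to 15 lower between Tet1kd and Tet2kd. Among the differences between the knockdowns, those of Lama4, Col11a2, Col13a1 and Col6a5 were lost without single libraries. Of the 14 members lower in Tet1kd than in Tet2kd, 11 were kept on the means of library pairs. Col11a2 and Col13a1 were among those lost there. On the means of the library pairs, an alternative chosen after seeing the data, limma gave 11 higher and 16 lower in Tet1kd and 7 higher and 6 lower in Tet2kd. The call of Col23a1 in Tet1kd did not pass with limma (adjusted p = 0.0519). The log2 difference of Col5a1 to Col5a2 in Tet2kd, 0.02, was -0.1044 without Tet2kd library d and -0.0867 without parental library a, in a range up to 0.1248, and that of Col6a1 to Col6a2 in Tet1kd, 0.13, was -0.0301 without parental library d, in a range up to 0.2135. No paired analysis was possible because the deposited columns carry no replicate numbers and the recovered libraries are not tied to those of the labels. Few reads limit Col24a1, Col14a1 and the 4 genes at or near 0.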
